A study of Mus musculus with 12 samples.

Results

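Cohesin is the ring-shaped protein complex that holds sister chromatids together and shapes chromosomes. The results below concern the transcripts of 8 of its core subunits, chosen by name: the meiotic subunits Rec8, Smc1b and Stag3, and the mitotic subunits Rad21, Smc1a, Smc3, Stag1 and Stag2. All 8 were among the 35976 gene symbols of the deposited count table and all 8 were among the 16166 genes tested. RNA was sequenced from primordial germ cells, the fetal cells that later form the gametes, of E14.5 female mouse embryos. Each library came from 5000 cells sorted for an Oct4-GFP reporter, which marks germ cells and was shared by all groups. There were 3 libraries in each of 4 groups. WT was wild type, HxD was Tet1HxD/HxD, with a catalytically dead Tet1, KO was Tet1-/-, and V was Tet1V/V, whose enzyme oxidizes only as far as 5-hydroxymethylcytosine according to the labels. TET1 is an enzyme that oxidizes 5-methylcytosine in DNA. The labels give neither the strain, the deleted part of Tet1 nor whether embryos were pooled or libraries came from separate animals, so the p-values speak only for the spread among libraries, technical spread included.

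A cohesin ring consists of an SMC heterodimer, a kleisin that closes it, and a STAG protein bound to the kleisin. In dividing cells the pair is SMC1A with SMC3, the kleisin is RAD21 and the STAG protein is STAG1 or STAG2. Cells that enter meiosis also make SMC1B, the kleisins REC8 and RAD21L, and STAG3, which build the chromosome axes and hold homologous chromosomes and sister chromatids until the meiotic divisions; SMC3 serves in both kinds of ring. In the female mouse, germ cells enter meiosis in the fetal ovary around the stage sampled here, under the control of STRA8.

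Total counts per library were 18471158 to 29495313, and 12568 to 17614 genes had a count. CPM below are counts scaled to a common library size with TMM factors. Among the 2936 genes averaging 1 to 5 CPM, 43.7% were at 0 in HxD1, 45.7% in KO3 and 27.1% in KO1, against 1.77% to 24.4% in the other libraries. The cohesin members lie far above that range, with counts of 893 to 30131 in every library. Tet1 itself was measured at 91.4, 180.1 and 215.0 CPM in WT against 130.7, 158.3 and 80.8 in KO, so the KO and WT libraries overlapped. HxD gave 227.0, 221.7 and 285.8 CPM, and V gave 225.7, 197.0 and 192.0. Since the deleted part is not given, this does not check the labels. The 6 germ cell markers Ddx4, Dazl, Dppa3, Pou5f1, Kit and Nanos3 were present in every library. Their summed level was 2996 to 3644 CPM in WT, 2457 to 2939 in HxD, 2566 to 2988 in KO and 2367 to 2888 in V. That sum does not stand for each marker. Ddx4 and Dazl had lower means in every mutant than in WT, while Dppa3, Pou5f1, Kit and Nanos3 had higher ones. The median log2 fold change of the 6 markers was 0.26 in HxD, 0.45 in KO and 0.35 in V. Among them Dazl fell in every mutant, from a mean of 1598 CPM in WT to 753.2 in HxD, 719.2 in KO and, for V, 685.7 (adjusted p by edgeR 0.0197, 0.00217 and 0.00312), and Pou5f1 rose in the mean of the mutants by 0.96 on the log2 scale (edgeR, adjusted p = 0.0134). Markers of supporting cells summed to 5.58 to 22.3 CPM over 8 genes in WT and to 3.85 to 5.38 in KO, with Foxl2 and Sox9 at 0 in all WT libraries. They summed to 2.01 to 9.92 CPM in HxD, with Sox9 at 0, and to 5.94 to 35.9 in V. Endothelial markers stayed at or under 12.7 CPM, red blood cell markers at or under 25.5, white blood cell markers at or under 10.9 and stromal markers at or under 17.8. The part of these levels in the results below was not tested.

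Within WT, levels of different genes were compared per kilobase of transcript. The order was Smc1b at 195.2 ± 52.8 CPM per kb (SD, n = 3), Rec8 at 184.6 ± 55.3, Stag3 at 149.97 ± 4.04, Smc3 at 145.6 ± 6.43, Rad21 at 126.6 ± 35.9, Smc1a at 59.6 ± 11.9, Stag1 at 46.7 ± 7.39 and Stag2 at 13.8 ± 1.31. The first 5 did not differ from their neighbours beyond 1 SD, nor did Smc1a from Stag1. Rad21 stood apart from Smc1a, and Stag1 from Stag2. By mean the 3 meiotic genes thus held the first 3 places in WT, as they did in WT1 and WT2. In WT3 they did not, since Rad21 at 151.7 CPM per kb was above Stag3 at 149.2 and Rec8 at 135.1. In KO the order began with Rad21 at 195.7 ± 20.9 CPM per kb and Smc3 at 159.1 ± 17.1, followed by Smc1b at 112.9 ± 30.7, Stag3 at 96.9 ± 14.8 and Rec8 at 72.8 ± 28.8. Rad21 was first and Smc3 was next in HxD and V as well. Smc1a, Stag1 and Stag2 held the last 3 places by mean in all 4 groups. In KO and V the means ± SD of Rec8 and Smc1a overlapped, as did those of Rad21 and Smc3. In KO2 Rec8 was at 44.0 CPM per kb against 80.2 for Smc1a, and in V1 at 54.6 against 76.4.

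The 3 meiotic subunits had lower mean levels in each Tet1 mutant than in WT. All 9 mutant libraries lay below all 3 WT libraries for Rec8, Smc1b and Stag3 alike. Rec8 fell in KO to 0.394 of its WT level, and Rec8 and Smc1b fell in the mean of the 3 mutants. With edgeR no meiotic member was called in HxD or V alone, while in V DESeq2 called all 3 and limma-voom 1. In bulk RNA, fewer cells of a kind and less transcript per cell cannot be told apart.

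Rec8 encodes the meiotic kleisin, which is cleaved to release chromosomes at the meiotic divisions. Its levels were 533.6, 380.9 and 295.0 CPM in WT and 159.3, 96.0 and 221.8 in KO. HxD had 278.0, 234.2 and 177.9 CPM, and V had 119.3, 220.9 and 219.1. The highest mutant library, HxD1, was below the lowest WT library, WT3, and WT1 was well above the other two. The log2 fold change was -1.34 ± 0.26 (SE) in KO (95% interval -1.88 to -0.81, edgeR, adjusted p = 0.0098). It was -1.11 ± 0.26 in V (edgeR, adjusted p = 0.0699) and -0.81 ± 0.26 in HxD (edgeR, adjusted p = 0.435), neither called. Against WT the mean of the 3 mutants differed by -1.09 ± 0.20 (edgeR, adjusted p = 0.0043). That comparison uses the same WT libraries as the other 3 and is not separate evidence.

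Smc1b encodes the meiotic partner of SMC3 in the ring. The 3 WT libraries had 1035, 692.1 and 643.3 CPM. HxD had 565.4, 457.9 and 396.8 CPM, KO had 593.8, 351.1 and 425.8, and V had 325.6, 384.1 and 512.6. KO1 came nearest to WT, at 593.8 CPM against 643.3 in WT3. Against WT it differed on the log2 scale by -0.74 ± 0.21 in HxD, -0.79 ± 0.21 in KO and, in V, by -0.96 ± 0.21 (adjusted p by edgeR 0.332, 0.0603 and 0.0577, none called). For the 3 mutants together the difference was -0.83 ± 0.17 (95% interval -1.17 to -0.49, edgeR, adjusted p = 0.00976).

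Stag3 encodes the STAG protein of meiotic rings. The WT libraries had 616.3, 649.9 and 628.4 CPM and the KO libraries 451.2, 436.2 and 336.9. In V the levels were 441.1, 446.5 and 431.5 CPM, and in HxD they were 547.0, 415.5 and 574.4. The WT libraries and the V libraries were each tightly grouped and well apart, while HxD1 and HxD3 lay between them and HxD2 lay below all V libraries. The log2 fold change was -0.63 ± 0.17 in KO (95% interval -0.98 to -0.28, edgeR, adjusted p = 0.0581), -0.52 ± 0.17 in V (adjusted p = 0.236) and -0.30 ± 0.17 in HxD (adjusted p = 0.736). None of these was called, nor was the difference of -0.48 ± 0.13 for the 3 mutants together (edgeR, adjusted p = 0.0693).

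**Figure D1:**
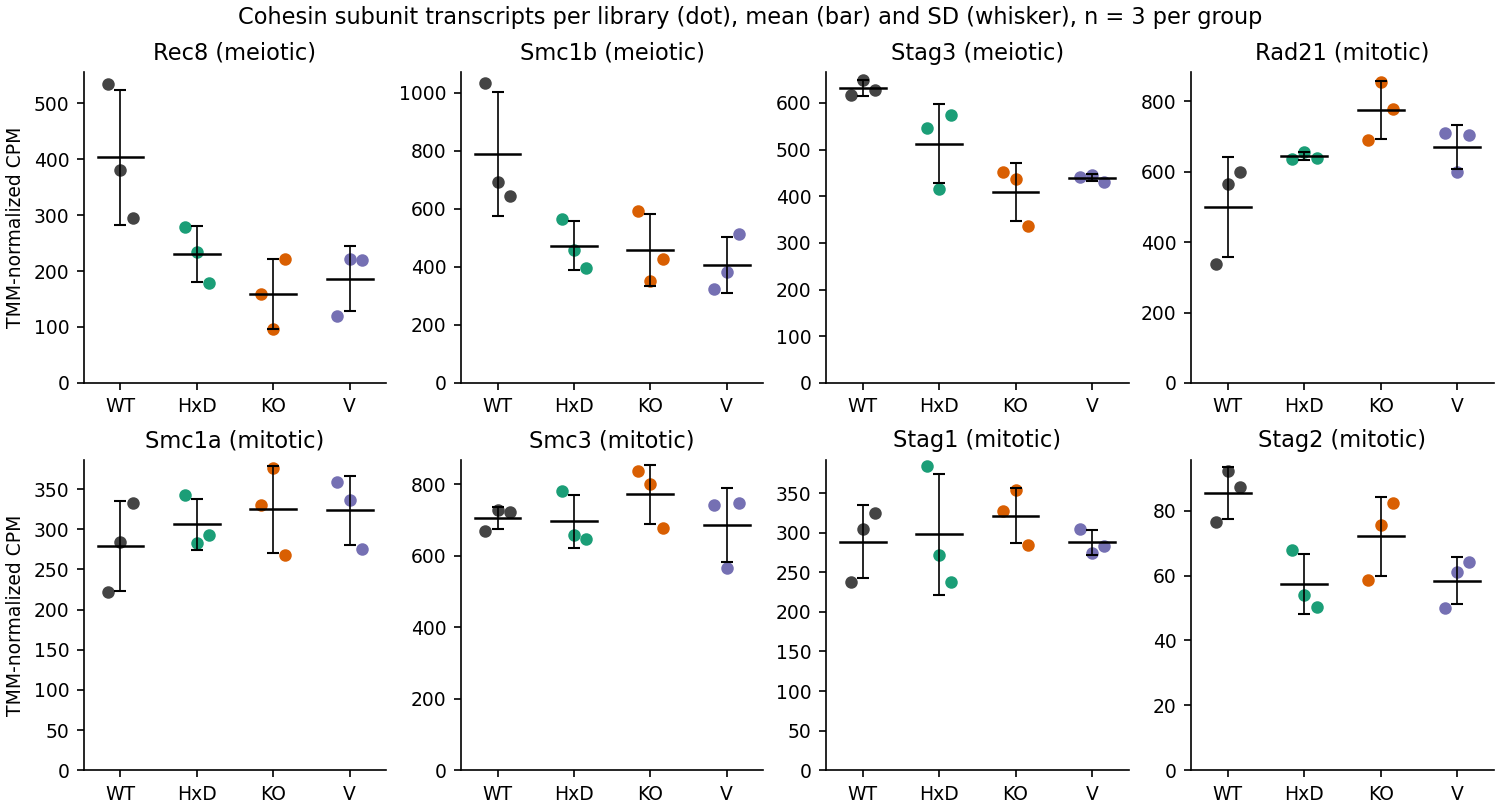
TMM-normalized CPM of the 8 cohesin subunits in each library, with 1 panel per gene and the groups on the horizontal axis; dots are libraries, horizontal bars group means and whiskers the SD (n = 3). For Rec8, Smc1b and Stag3 every mutant library sits below every WT library, while Smc3, Smc1a and Stag1 overlap between groups.

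Of the 3 meiotic members, 1 was called lower in KO, where 0.495% of all tested genes were called lower. In HxD the count was 0, against 0.0247% of all genes, and in V it was 0, against 0.0866%. For the 3 mutants together it was 2, against 0.637%. At an unadjusted p under 0.05 the counts were 2 in HxD, 3 in KO, 3 in V and 3 for the mutants together. Of all 16166 genes tested, 1172, 2138, 1567 and 2129 passed that threshold (edgeR). DESeq2 called 0, 3, 3 and 3, and limma-voom 0, 3, 1 and 3. Among all genes DESeq2 called 82, 624, 271 and 631, and limma-voom 15, 187, 20 and 346. In all 3 comparisons of a single mutant, 3 of 3 meiotic members had libraries wholly below WT. Over all genes this held for 5.77% in HxD, 8.36% in KO and 7.48% in V. It held for 2.05% of genes when all 9 mutant libraries were set against WT, and for 3 of 3 meiotic members. The median log2 fold change of the meiotic members was -0.74 in HxD, -0.79 in KO and -0.96 in V, against -0.01, -0.02 and 0.00 over all genes tested.

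Without WT1, the library with the most Rec8, Rec8 remained called in KO, at -1.09 on the log2 scale (edgeR, adjusted p = 0.0231), and in the mutants together, at -0.83 (edgeR, adjusted p = 0.0471). The call of Smc1b in the mutants together was lost without WT1, at -0.58 (edgeR, adjusted p = 0.173). With only KO and WT in the fit the call of Rec8 was lost, at -1.37 (edgeR, adjusted p = 0.0515). With HxD1, KO1 and KO3 left out, which leaves KO2 as the single KO library, with its spread taken from the remaining groups, Rec8 was at -2.09 in KO.

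The promoters of the meiotic subunits are shown because every mutant library had less of these transcripts than every WT library. RefSeq windows on GRCm38.p6, from 250 bases before to 50 after an annotated start, were found for 6 of the 8 members, all but Rad21 and Stag2. Capitals mark the E2F core TCCCGC and the E-box CACGTG or their reverse complements, letters that E2F and bHLH factors are known to bind, searched on both strands. Smc1a is shown as the mitotic counterpart of Smc1b. The windows are chr14:55617916-55618215 on the plus strand for Rec8, chr5:138280259-138280558 on the plus strand for Stag3, chr15:85131908-85132207 on the minus strand for Smc1b and chrX:152016178-152016477 on the plus strand for Smc1a, and each is printed 5′ to 3′ in the direction of its gene.
Rec8: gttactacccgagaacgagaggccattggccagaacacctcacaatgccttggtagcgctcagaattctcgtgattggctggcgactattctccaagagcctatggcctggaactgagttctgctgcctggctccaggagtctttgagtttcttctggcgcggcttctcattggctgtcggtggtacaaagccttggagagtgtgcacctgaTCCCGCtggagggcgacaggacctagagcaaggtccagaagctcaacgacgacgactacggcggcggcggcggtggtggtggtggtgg
Stag3: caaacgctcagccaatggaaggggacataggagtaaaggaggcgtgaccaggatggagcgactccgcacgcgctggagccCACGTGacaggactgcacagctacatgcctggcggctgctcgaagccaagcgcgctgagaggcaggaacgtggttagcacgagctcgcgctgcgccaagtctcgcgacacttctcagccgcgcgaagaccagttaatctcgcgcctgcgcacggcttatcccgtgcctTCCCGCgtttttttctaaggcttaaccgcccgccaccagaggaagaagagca
Smc1b: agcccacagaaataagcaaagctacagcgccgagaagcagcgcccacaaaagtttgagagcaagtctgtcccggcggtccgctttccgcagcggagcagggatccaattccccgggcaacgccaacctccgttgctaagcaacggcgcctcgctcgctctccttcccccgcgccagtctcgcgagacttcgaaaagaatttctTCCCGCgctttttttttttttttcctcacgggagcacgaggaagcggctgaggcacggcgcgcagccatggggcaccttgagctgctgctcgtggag
Smc1a: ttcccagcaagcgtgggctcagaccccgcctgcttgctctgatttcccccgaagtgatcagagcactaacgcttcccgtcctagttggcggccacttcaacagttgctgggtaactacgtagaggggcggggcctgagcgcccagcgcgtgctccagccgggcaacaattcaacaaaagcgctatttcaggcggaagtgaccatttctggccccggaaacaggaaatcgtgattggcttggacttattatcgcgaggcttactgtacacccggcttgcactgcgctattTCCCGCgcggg

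The E2F core was found in all 6 windows, the 3 meiotic and the 3 mitotic ones (Smc1a, Smc3 and Stag1). It occurs in 20.0% of the 32851 promoters of the table, and in 47.7% of the 9764 that hold at least 18 CG dinucleotides, as all 6 do. It began at position -38 in Rec8, -2 in Stag3 and -47 in Smc1b, and at position 39 in Smc1a, counting the annotated start as 0. The E-box was found in Stag3 alone of the 6, at position -170. It occurs in 7.15% of all promoters and in 11.6% of those with at least 18 CG dinucleotides. The motif CNCCTCAG, which is known from promoters bound by STRA8, was in none of the 6 windows. For this motif the same shares were 7.94% and 9.69%. The CG dinucleotides numbered 18 in Rec8, 30 in Stag3 and 29 in Smc1b, and 23 in Smc1a, 32 in Smc3 and 43 in Stag1, against a median of 7 over all promoters. The motifs searched thus did not separate meiotic from mitotic members, and a single window with an E-box is too few to do so.

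Of the 5 mitotic members, 0 were called in any comparison with WT (edgeR). At an unadjusted p under 0.05 the counts were 1 in HxD, 1 in KO, 2 in V and 2 for the mutants together, all of them Rad21 or Stag2. Of all 16166 genes, 1172, 2138, 1567 and 2129 passed that threshold in the same comparisons. DESeq2 called 1 in KO and 0 in the other 3, and limma-voom called 1 in KO, 1 for the mutants together and 0 in HxD and V. In HxD, KO, V and the mutants together, DESeq2 called 82, 624, 271 and 631 of all genes. For limma-voom these counts were 15, 187, 20 and 346. With edgeR, 1.22% of all genes were called in either direction in KO, 0.0309% in HxD, 0.155% in V and 1.22% for the mutants together. The median log2 fold change of the mitotic members was 0.05 in HxD, 0.16 in KO and -0.01 in V.

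Rad21 encodes the mitotic kleisin, the counterpart of Rec8. WT had 338.0, 563.9 and 600.3 CPM, HxD 637.2, 656.3 and 640.2, KO 689.2, 854.1 and 778.9, and V 709.0, 598.6 and 703.8. All HxD and KO libraries were above WT, V2 was within the WT range, and WT1, the library highest in Rec8, was the lowest in Rad21. The log2 fold change was 0.63 ± 0.18 in KO (95% interval 0.25 to 1.01, edgeR, adjusted p = 0.091). HxD differed by 0.36 ± 0.18 and V by 0.42 ± 0.18, with adjusted p by edgeR of 0.706 and 0.463. Without WT1 these were 0.41, 0.15 and 0.21. Libraries wholly above WT were found for 8.17% of all genes in KO and 6.43% in HxD.

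Stag2, an X-linked gene for a mitotic STAG protein, was at 76.5, 92.4 and 87.5 CPM in WT and at 67.8, 53.9 and 50.3 CPM in HxD. KO had 58.7, 75.6 and 82.3 CPM, and V had 50.2, 61.2 and 64.1. The HxD and V libraries lay below WT, as 5.77% and 7.48% of all genes did in those comparisons, and the KO libraries overlapped it. On the log2 scale HxD differed from WT by -0.58 ± 0.21, KO by -0.24 ± 0.21 and V by -0.55 ± 0.21, none of them called (adjusted p by edgeR 0.551, 0.67 and 0.383). For the meiotic Stag3 the differences in HxD, KO and V were -0.30, -0.63 and -0.52, so only in KO was the fall of Stag3 clearly the larger in value.

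Stag1, Smc1a and Smc3 overlapped between WT and every mutant. Stag1 encodes the other mitotic STAG protein and was at 289 ± 45.7 CPM in WT and 322 ± 35.2 in KO. Smc1a, which is X-linked, was at 280 ± 55.9 CPM in WT and 325 ± 54.3 in KO. Smc3, the SMC subunit that mitotic and meiotic rings share, was at 706 ± 31.2 CPM in WT, 696 ± 74.5 in HxD, 772 ± 83.1 in KO and 685 ± 104 in V. In KO the 95% intervals of the log2 fold change ran from -0.22 to 0.53 for Stag1, from -0.16 to 0.59 for Smc1a and from -0.21 to 0.47 for Smc3. The intervals bound any rise or fall of these genes but do not show that they were equal.

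**Figure D2:**
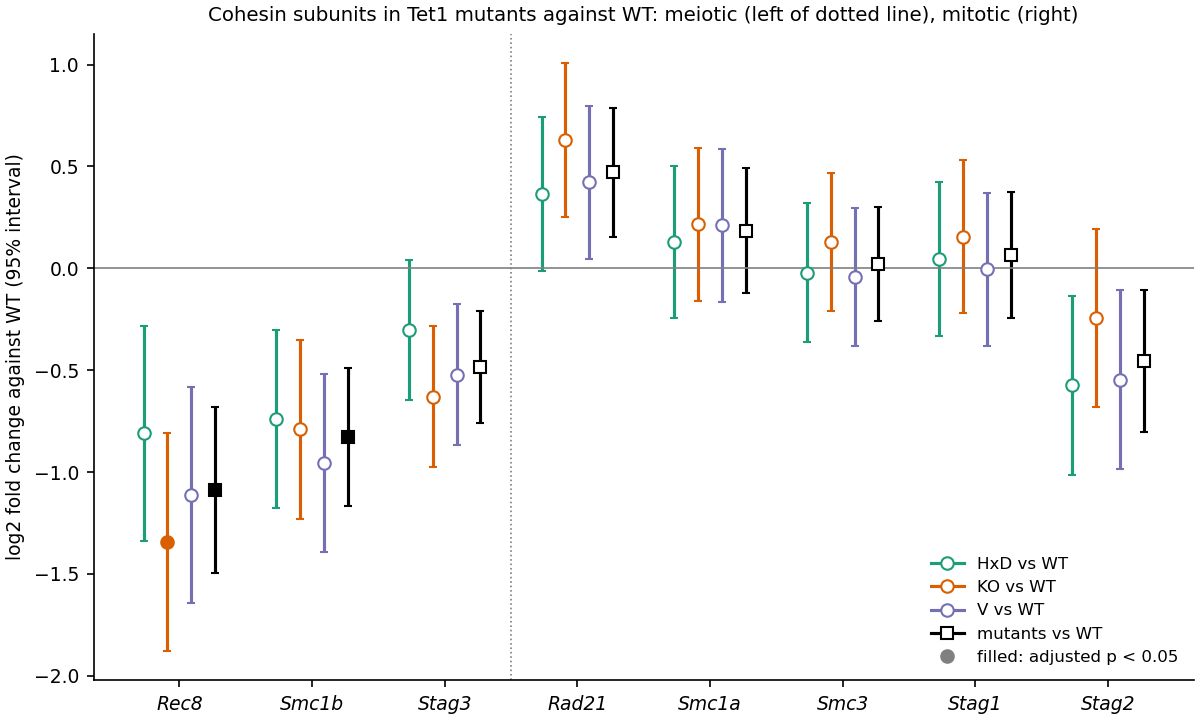
log2 fold change of each subunit against WT with its 95% interval, for HxD, KO, V and the mean of the 3 mutants; filled symbols have an adjusted p under 0.05 (edgeR). Rec8 is filled in KO and in the mean of the mutants, Smc1b in the mean of the mutants, and every point of the meiotic genes lies below 0.

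Meiotic and mitotic forms were then compared within each library, which does not depend on the library total. Per kilobase, Rec8 made up 58.7 ± 13.9% of Rec8 plus Rad21 in WT (SD, n = 3), 38.96 ± 5.34% in HxD, 26.8 ± 8.87% in KO and 33.2 ± 8.72% in V. By library the share was 74.1, 55.0 and 47.1% in WT and 29.5, 16.9 and 34.0% in KO. Every mutant library was below every WT library. The log2 ratio of the Rec8 count to the Rad21 count was lower than in WT by a mean difference of -1.20 in HxD, -2.05 in KO and -1.59 in V, and without WT1 by -0.71, -1.56 and -1.10.

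Smc1b made up 75.8 ± 7.83% of Smc1b plus Smc1a in WT, 64.0 ± 2.57% in HxD, 61.5 ± 8.34% in KO and 58.8 ± 8.70% in V. The highest mutant library, V3, was at 68.3% and the lowest WT library, WT3, at 69.1%, so the groups did not overlap but nearly met. The log2 count ratio differed from WT by -0.87 in HxD, -1.01 in KO and -1.17 in V, and without WT1 by -0.50, -0.64 and -0.80.

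Stag3 made up 71.3 ± 2.64% of Stag3 plus Stag1 plus Stag2 in WT, 67.9 ± 5.76% in HxD, 60.2 ± 2.87% in KO and 65.1 ± 0.917% in V. The KO and V libraries were all below WT, and HxD3, at 74.5%, was above all 3 WT libraries. The log2 count ratio differed from WT by -0.22 in HxD, -0.72 in KO and -0.42 in V. In HxD this was -0.09 without HxD1 and -0.45 without HxD3. These ratios combine members and were not tested. In WT the meiotic form held the larger share at all 3 positions in the mean, and in each mutant it did so at the SMC1 and STAG positions while Rad21 held the larger share of the kleisins.

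**Figure D3:**
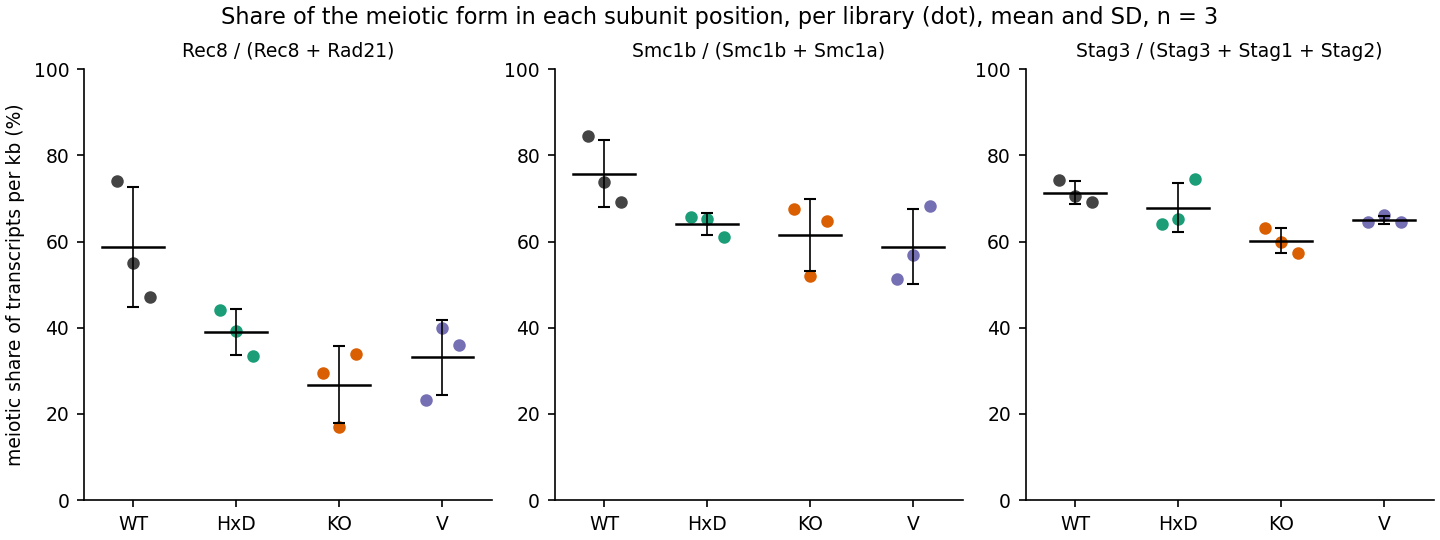
Share of the meiotic form among the transcripts per kilobase of each subunit position, in percent, for each library (dots) with group mean and SD (n = 3). The Rec8 share runs from 47.1 to 74.1% in WT and from 16.9 to 34.0% in KO, and the Stag3 panel shows HxD3, at 74.5%, level with the top of WT.

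The 3 mutants were also compared with one another. No member was called in HxD against KO, V against KO or V against HxD, where 0 of 16166 genes were called (edgeR) and 514, 747 and 326 had an unadjusted p under 0.05. DESeq2 called 34, 21 and 20 genes in these comparisons and limma-voom called 0, and neither called a member. At an unadjusted p under 0.05 there was 1 member, Rec8, in HxD against KO, with a log2 fold change of 0.53 ± 0.26 (95% interval 0.01 to 1.06). With 1 library left out this value ran from 0.28 without KO2 to 0.86 without KO3. For Rec8 the interval was -0.30 to 0.76 in V against KO and -0.83 to 0.22 in V against HxD. For Smc1b it was -0.38 to 0.49 in HxD against KO, -0.60 to 0.27 in V against KO and -0.65 to 0.22 in V against HxD. For Stag3 the corresponding intervals were -0.02 to 0.67, -0.24 to 0.45 and -0.56 to 0.12. Rad21 was lower in every HxD library than in every KO library, as 3.72% of all genes were, with an interval of -0.64 to 0.11.

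On the scale of log2 CPM across the 12 libraries, the gene that followed Rec8 most closely was H2-K1 (Pearson r = 0.99, Spearman rho = 0.99), a class I histocompatibility gene that shares sequence with its relatives, so its counts are uncertain. Its level was 52.4 ± 30.8 CPM in WT, 16.5 ± 4.12 in HxD, 8.79 ± 5.25 in KO and 11.5 ± 6.45 in V. Next came Stra8, the regulator of meiotic entry (r = 0.98, rho = 0.94), Mov10l1, a piRNA factor (r = 0.95), Meioc, which is needed for meiotic prophase (r = 0.95), and H2-D1, a relative of H2-K1 (r = 0.95). The search covered 10394 genes averaging 5 CPM or more, and the values describe these libraries, which share their 4 groups. Without KO2 and WT1, the libraries farthest from the median of Rec8, the 5 values ran from 0.88 for H2-D1 to 0.98 for H2-K1.

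Smc1b was followed most closely by Sycp1, a synaptonemal complex gene (r = 0.95, rho = 0.94), Larp1b (r = 0.94), the germ cell RNA-binding factor Dazl (r = 0.94), Taf7l (r = 0.94) and Stk31 (r = 0.93). Without V1 and WT1 these ran from 0.85 to 0.91. For Stag3 they were Gm7972 (r = 0.91), Pja2 (r = 0.90), Pnldc1 (r = 0.86), Caprin2 (r = 0.86) and Dmrtb1 (r = 0.86), and without WT2 and WT3 from 0.80 to 0.88. The 3 lists share no gene.

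Stra8 was at 977.1, 423.0 and 247.1 CPM in WT, and Rec8 had the same order over these libraries, 533.6, 380.9 and 295.0 CPM. In KO, Stra8 was at 73.9, 32.2 and 114.5 CPM, again in the order of Rec8. Rad21 ran the other way over the 12 libraries, with r = -0.86 to Stra8 and -0.82 to Rec8. Smc1a also ran the other way, with r = -0.72 to Stra8 and -0.72 to Rec8. By rank it did so less closely, with rho = -0.53 to Rec8 against -0.78 for Rad21. Of the other mitotic members, r to Stra8 was -0.35 for Smc3, -0.37 for Stag1 and 0.49 for Stag2. With group means removed, r of Rec8 was 0.73 with Smc1b, -0.57 with Rad21, -0.70 with Smc1a and -0.41 with Stag3. So within groups Smc1b went with Rec8 and Stag3 did not. Sycp3, an axis protein gene that loads onto cohesin cores, was at 182.7, 58.0 and 40.5 CPM in WT and at 17.4, 9.81 and 39.3 CPM in KO.

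**Figure D4:**
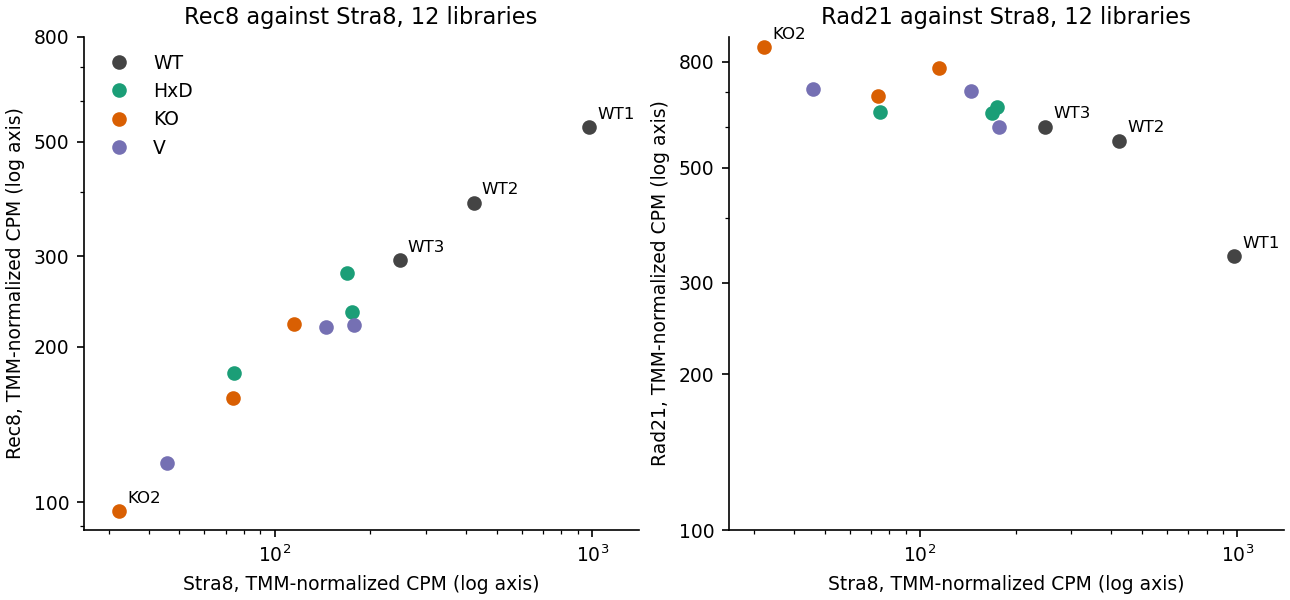
Rec8 (left) and Rad21 (right) against Stra8 in the 12 libraries, TMM-normalized CPM on log axes, coloured by group. Rec8 climbs with Stra8 from KO2 to WT1 and Rad21 is lowest in WT1, the library highest in Stra8.

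Other cohesin genes were taken from a list of 18, of which 17 were tested. It held loaders, releasers, acetyltransferases, protectors, cleavage factors and further regulators, and also Rad21l and Meikin, which are described below. None was called in HxD, KO or V alone (edgeR), with 4, 5 and 5 at an unadjusted p under 0.05. Of all 16166 genes, 1172, 2138 and 1567 passed that threshold. DESeq2 called 0, 3 and 2 of them and limma-voom 0 in each, against 82, 624 and 271 by DESeq2 over all genes. For the mutants together edgeR called 1 higher and 0 lower, and their median log2 fold change was 0.09. In that comparison 7 had an unadjusted p under 0.05 (edgeR), against 2129 of all genes. DESeq2 called 3 and limma-voom 1, against 631 and 346 over all genes. The gene called by edgeR was Cdca5, which encodes sororin, a factor that keeps cohesin on replicated DNA. Cdca5 was at 66.1, 86.5 and 126.2 CPM in WT and at 119.3 to 186.8 CPM in the mutants, with 8 of 9 mutant libraries above WT3. Its log2 fold change was 0.74 ± 0.18 (edgeR, adjusted p = 0.0335), and without WT1 no gene of the list was called. Over all genes, 0.588% were called higher in that comparison.

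Rad21l, the other meiotic kleisin, was at 53.3, 0.704 and 7.57 CPM in WT. In the mutants it ranged from 0 in KO3 to 7.90 CPM in V2, and WT2 and WT3 lay within that range. Its log2 fold change of -4.34 ± 1.36 in KO was not called (edgeR, adjusted p = 0.125), and the WT mean rests on WT1. Meikin, a later meiotic kinetochore factor, was too low to be tested. Of 8 condensin genes and 7 tested SMC5/6 genes, the related SMC complexes, 0 were called in any comparison with WT (edgeR; DESeq2 and limma-voom also 0). At an unadjusted p under 0.05 there was 1 condensin gene in each of these comparisons, and there were 0, 1, 2 and 2 SMC5/6 genes in HxD, KO, V and the mutants together. Of all 16166 genes, 1172, 2138, 1567 and 2129 passed that threshold in the same comparisons.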

How the data were processed

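The authors deposited whole-number counts by gene symbol for the 12 libraries, without normalization, and each column was matched to a sample by the group and number in its title. The submitters' processing notes list featureCounts 2.0.3, STAR 2.7.10b, Trim Galore 0.6.7, SAMtools 1.9 and FastQC, and name both GRCm39 and mm10 with no role stated; annotation, strand and multi-mapping settings are not given in these sources. In RefSeq, Stag3, Smc1b, Smc1a, Rad21 and Stag1 overlap other genes, so reads shared with those are uncertain.

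Differences were tested two-sided with edgeR 4.0.16 in R 4.3.3 (quasi-likelihood, TMM, filterByExpr) in 1 model of the 4 groups, adjusted by Benjamini-Hochberg over 16166 genes and called at an adjusted p under 0.05. SE and intervals come from the same fit. CPM are given per library or as mean ± SD, n = 3. Levels per kb use the longest coding transcript of GENCODE M21. Ratios had 0.5 added to each count. Alternatives were DESeq2 1.42.0, limma-voom (limma 3.58.1), other scaling and filters, a replicate block and libraries left out. Scripts were tested on simulated data.

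Members and lists were chosen with earlier results of these data known. The named genes are the 8 members, Rad21l, Stra8, Sycp3, listed cohesin, condensin and SMC5/6 genes called against WT, and the 5 genes most like each meiotic member; Tet1 and cell type markers are named as checks, and Meikin, outside the rule, as the listed gene not tested. Within each group no library repeated another: chi-square per degree of freedom was 29.9 or more between replicates. Libraries of different groups were not compared in this way.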

Additional observations from a re-analysis of the deposited data

How the results depend on the processing

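Meiotic members called in HxD were 2 with no filter on low counts and 2 without HxD1, KO1 and KO3 (a choice made after seeing the data), against 0. In KO, against 1, they were 2 with the size factors of DESeq2, 3 with no filter, 2 at a mean of at least 5 CPM, 3 by DESeq2, 3 by limma-voom, 0 with KO and WT alone in the fit and 2 without HxD1, KO1 and KO3, where KO2 is the single KO library and is assumed to vary like the other groups. In V, against 0, these were 1 with the size factors of DESeq2, 2 with no filter, 3 by DESeq2, 1 by limma-voom and 2 without those 3 libraries. With 1 library left out the meiotic counts were 0 in HxD, 1 to 3 in KO, 0 to 2 in V and 1 to 2 for the mutants together. Without WT1 the count for the mutants together was 1, Rec8. Mitotic members called in KO were 1 by DESeq2 and 1 by limma-voom, and 0 to 1 with 1 library left out (1, Rad21, without WT3); for the mutants together they were 1 by limma-voom and 1 without HxD1, KO1 and KO3.

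With the replicate number as a block, meiotic members called were 2 in KO and 2 in V. The numbers did not pair the libraries: r of deviations was over 0.1 in 1 of 18 same-numbered pairs (range -0.15 to 0.11), and in 5 of 18 cases a library correlated best with its own number.

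Genes called ranged from 1 to 121 in HxD, 26 to 624 in KO, 3 to 383 in V and 47 to 663 for the mutants together, with 49 in KO without WT1 and 425 without WT3. No fit of 2 groups alone was made for the mutants together. The cause of these shifts was not tested.

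Among uncalled log2 differences, some near 0 changed sign. By DESeq2 the values were -0.016 for Smc3 in the mutants together, 0.0045 for Smc1a in V against KO. With the size factors of DESeq2 the values were -0.016 for Smc3 in the mutants together, 0.0044 for Smc1a in V against KO. At a mean of at least 5 CPM the values were -0.0065 for Smc3 in the mutants together, 0.0054 for Smc1a in V against KO. By limma-voom the value was 0.0072 for Stag1 in V. With no filter the value was 0.017 for Smc1a in V against KO. Without HxD1, KO1 and KO3 the values were -0.19 for Stag1 in HxD, -0.00072 for Smc3 in the mutants together, 0.24 for Smc1b in V against KO, 0.078 for Smc3 in V against HxD, 0.18 for Stag1 in V against HxD. With 1 library left out, those that crossed 0 ran in HxD from -0.0098 to 0.28 for Smc1a, -0.11 to 0.019 for Smc3, -0.18 to 0.17 for Stag1; in V from -0.11 to 0.080 for Smc3, -0.13 to 0.090 for Stag1; in the mutants together from -0.013 to 0.064 for Smc3, -0.056 to 0.16 for Stag1. They ran in HxD against KO from -0.10 to 0.29 for Smc1b, -0.20 to 0.038 for Smc1a, -0.34 to 0.043 for Stag1. They ran in V against KO from -0.030 to 0.55 for Rec8, -0.0066 to 0.18 for Stag3, -0.36 to 0.069 for Smc1b, -0.12 to 0.11 for Smc1a. They ran in V against HxD from -0.091 to 0.099 for Smc3, -0.18 to 0.17 for Stag1, -0.048 to 0.17 for Stag2.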
